A study of Mus musculus with 28 samples.

Results

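Astrocytes mature after birth, and 10 genes used as astrocyte markers in the rodent brain were followed here: *Gfap*, *S100b*, *Slc1a2*, *Slc1a3*, *Glul*, *Gja1*, *Gjb6*, *Aqp4*, *Aldoc* and *Aldh1l1*. They were chosen by name, with earlier results of these data known, and each was found among the 23038 genes of every library. Every one of the 10 genes passed the filter on low counts in each comparison, so none was lost.

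Astrocytes arise from radial glia around birth and then take on their adult tasks over the first postnatal weeks. They clear glutamate from the synapse and turn it into glutamine, take up potassium and water, and pass ions and metabolites to each other through gap junctions. Several of the genes used as astrocyte markers are also expressed by other cells: *Aldoc* in Purkinje cells, *Glul* and *S100b* in oligodendrocytes, and *Slc1a3*, *Aldh1l1* and *Vim* in radial glia.

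The study asked whether the human-type form of the splicing regulator NOVA1, with valine in place of isoleucine at residue 197 (I197V), changes gene expression in the mouse brain. Bulk RNA-seq covered 28 libraries: embryonic midbrain (E18.5, days after conception; 6 libraries of *Nova1* hu/hu and 6 of the control, *Nova1* wt/wt), midbrain of 21-day-old pups (P21; 4 and 4) and cortex of the same age (4 and 4). Both genotypes had the C57BL/6J background, BL6 in the labels. The hu/hu allele was made by CRISPR/Cas9 in zygotes and backcrossed, is present on both chromosomes in every cell type, and also carries silent changes used for genotyping. Labels number the libraries of a group as replicates without naming the animal, so p-values measure the spread between these libraries, and the sex of each was not used. Cortex at E18.5 was not analysed here, so age was compared in midbrain.

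Library totals ranged from 18550922 to 45134998 counts, and each of the 10 genes had at least 53 counts in every library. The tissue labels were checked against marker lists. Oligodendrocyte markers summed to 126 to 167 TPM (a level per exon length, scaled to the same sum in each library) at E18.5, 23830 to 26770 TPM in P21 midbrain and 7107 to 7981 TPM in P21 cortex, and dividing progenitor markers fell from 116 to 143 TPM at E18.5 to 5.08 to 9.15 TPM in P21 midbrain. Ependymal and choroid plexus markers, which mark the lining of the ventricles, varied widely between libraries, from 69.0 to 3692 TPM at E18.5 and from 60.8 to 3095 TPM in P21 midbrain, and a few reads of cerebellar granule cell genes appeared in P21 midbrain (*Gabra6* 2.52 ± 2.56 TPM, SD, n = 8, against 0.018 ± 0.034 TPM in P21 cortex, SD, n = 8). In these bulk samples, fewer astrocytes and less RNA per astrocyte cannot be told apart.

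The 10 genes were placed by their Entrez identifiers (GRCm38 coordinates, RefSeq), and the counts cover their exons. *Gfap* is at chr11:102887336-102897200 and *Aldoc* at chr11:78323073-78327781, *S100b* at chr10:76253836-76261319 and *Gja1* at chr10:56377300-56390419, *Slc1a2* at chr2:102658239-102790784, *Slc1a3* at chr15:8634124-8710807, *Glul* at chr1:153899929-153909723, *Gjb6* at chr14:57123301-57133611, *Aqp4* at chr18:15389394-15410982 and *Aldh1l1* at chr6:90550768-90599171. Their exon lengths in the tables ran from 1429 nucleotides (*Aldoc*) to 12068 (*Slc1a2*), and levels are therefore compared between genes as TPM.

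In midbrain, 9 of the 10 genes were called higher at P21 than at E18.5 and 1, *Aldh1l1*, was called lower. Of these, 8 rose at least 2-fold in the fit and 7 as a difference of mean log2 TPM, where *Gja1* fell short. Calls came from edgeR's quasi-likelihood test fitted across all genes, and needed p under 0.05 together with an adjusted p (Benjamini-Hochberg) under 0.1. Much of the transcriptome differed between the 2 ages. Of the 16330 genes tested, 85.6% were called, 42.4% as higher and 43.3% as lower at P21. At least 2-fold higher were 15.9%, so a call alone says little and the sizes matter. Age cannot be told apart here from whatever else differed between the E18.5 and P21 sets of libraries. The median log2 fold change of the 10 genes was 2.86, against −0.015 over all genes tested. Because the 10 genes were chosen with earlier results of these data known, contrasts with all genes describe them and test nothing. The TPM ranges of the 12 E18.5 and 8 P21 midbrain libraries did not overlap for 9 of the 10 genes, compared with 61% of the 15943 genes that averaged 1 TPM or more at either age.

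**Figure D1:**
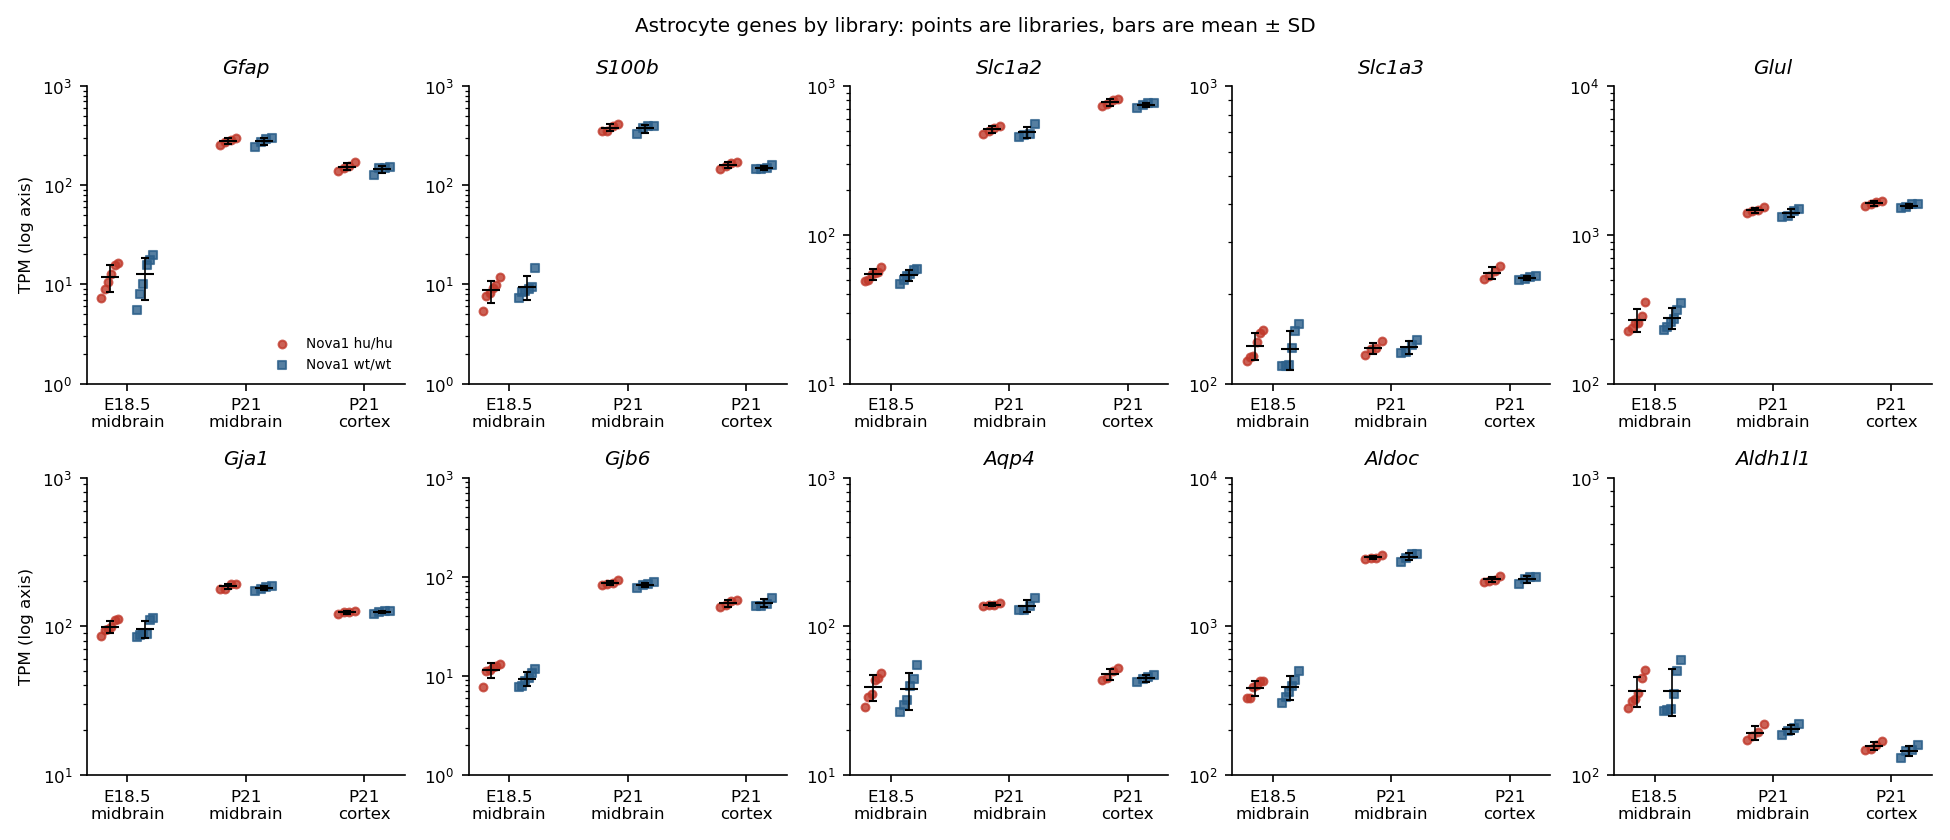
TPM of each of the 10 genes (vertical log axis, range set per gene) in every library, by tissue and age. Red circles show *Nova1* hu/hu and blue squares *Nova1* wt/wt libraries, and black bars give mean ± SD per genotype. *S100b* and *Gfap* lie at 19.7 TPM or lower at E18.5 and at 245 TPM or higher in P21 midbrain, *Slc1a3* averages 132 TPM at both midbrain ages, and the genotypes lie side by side throughout.

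The cytoskeletal and calcium-binding markers rose most. *S100b*, a calcium-binding protein of astrocytes, ranged from 5.38 to 14.5 TPM at E18.5 (median 8.77) and from 325 to 412 TPM in P21 midbrain (median 386). Its lowest P21 library was far above its highest E18.5 library, and its log2 fold change was 5.56 (standard error 0.090, edgeR adjusted p = 1.88e-26), or 47.1-fold. *Gfap*, the intermediate filament protein of astrocytes, ranged from 5.57 to 19.7 TPM at E18.5 (median 11.6) and from 245 to 299.7 TPM in P21 midbrain (median 282). The groups were again apart, and the log2 fold change was 4.70 (standard error 0.15, adjusted p = 5.14e-20), or 26.0-fold. At E18.5 *Gfap* had the widest relative spread of the 10 genes, with a coefficient of variation of 37.1% over 12 libraries, and *S100b* rested on 53 to 181 counts per library. Oligodendrocyte markers, which stand for a cell type that also holds *S100b*, rose in all 10 of 10 genes over the same interval (median log2 fold change 8.70), and their part in the rise of *S100b* was not tested.

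The genes of glutamate handling differed among themselves. *Slc1a2*, which encodes the glutamate transporter GLT-1 of mature astrocytes, ranged from 46.8 to 60.3 TPM at E18.5 (median 54.5) and from 457 to 552 TPM in P21 midbrain (median 487). It rose by 3.42 on the log2 scale (standard error 0.045, adjusted p = 3.60e-28), or 10.7-fold, with the narrowest E18.5 spread of the 10 genes (coefficient of variation 8.16%). *Slc1a3*, which encodes the second astrocyte glutamate transporter GLAST and is already used by radial glia, ranged from 114 to 159 TPM at E18.5 (median 128) and from 125 to 141 TPM in P21 midbrain (median 131), so the P21 libraries lay within the E18.5 range. Its fitted log2 fold change was 0.20 (standard error 0.056, adjusted p = 0.00187), but this call rested on the scaling: the difference of mean log2 TPM was 0.0055 (two-sided exact permutation test, p = 0.932), and with upper-quartile factors the log2 fold change was 0.10 and the gene was not called. The median gene itself stood 0.21 lower at P21 on the log2 TPM scale and 0.12 lower with upper-quartile factors, against 0.015 lower in the fit reported here. *Glul*, glutamine synthetase, ranged from 225 to 355 TPM at E18.5 (median 258) and from 1314 to 1528 TPM in P21 midbrain (median 1437), and rose by 2.60 on the log2 scale (standard error 0.069, adjusted p = 4.58e-22), or 6.06-fold. Oligodendrocytes also hold *Glul*, and their part in its rise was not tested.

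The connexins both rose, by different amounts. *Gja1*, which encodes connexin 43, ranged from 85.3 to 114 TPM at E18.5 (median 95.3) and from 173 to 192 TPM in P21 midbrain (median 182). Its log2 fold change was 1.11 (standard error 0.051, adjusted p = 6.20e-17), while the difference of mean log2 TPM was 0.92, under 2-fold. *Gjb6*, which encodes connexin 30 of postnatal astrocytes, ranged from 7.67 to 13.2 TPM at E18.5 (median 10.9) and from 76.4 to 92.9 TPM in P21 midbrain (median 84.5), a log2 fold change of 3.24 (standard error 0.075, adjusted p = 3.08e-23), or 9.44-fold. For both genes the 2 ages did not overlap.

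*Aqp4*, the water channel of astrocyte endfeet, ranged from 26.6 to 55.1 TPM at E18.5 (median 37.2) and from 128 to 155 TPM in P21 midbrain (median 138). It rose by 2.05 on the log2 scale (standard error 0.099, adjusted p = 1.95e-16). *Aldoc*, the brain form of the glycolytic enzyme aldolase, ranged from 305 to 498 TPM at E18.5 (median 394) and from 2717 to 3082 TPM in P21 midbrain (median 2890), a log2 fold change of 3.12 (standard error 0.066, adjusted p = 4.20e-24). *Aldh1l1*, a folate enzyme used as a marker of all astrocytes, went the other way, from 164 to 244 TPM at E18.5 (median 183) to 131 to 149 TPM in P21 midbrain (median 140). It fell by 0.24 on the log2 scale (standard error 0.062, adjusted p = 0.000859). As a difference of mean log2 TPM it fell by 0.44 (two-sided exact permutation test, p = 1.59e-05), and no P21 library reached the lowest E18.5 library. On that TPM scale the median gene itself stood 0.21 lower at P21, so part of this fall and of the gap is shared with other genes. The exons of *Aldh1l1* in GENCODE M21, 4516 nucleotides in all (3084 in the count tables), overlap those of the antisense gene *Gm15756* over 11.05% of their length and those of the same-strand lincRNA *Gm45901* over 2.33%. Neither of these is among the counted genes. Counts of *Aldh1l1* were not whole numbers in 6 of the 28 libraries. The same held for *Aldoc* in 24 libraries, *Slc1a2* in 17, *Slc1a3* in 13 and *Gfap* in 12, while the remaining genes, *Glul* among them, had whole counts throughout. Reads of *Aldh1l1* and *Gm15756* cannot be told apart here, because no source says that counting used the strand, and same-strand overlaps cannot be told apart by strand at all. Smaller overlaps were found for *Slc1a2* (1.44% with the antisense *Gm13872*) and *Glul* (3.49% with *Teddm2* on the opposite strand and 2.80% with the same-strand *Mir8114*).

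**Figure D2:**
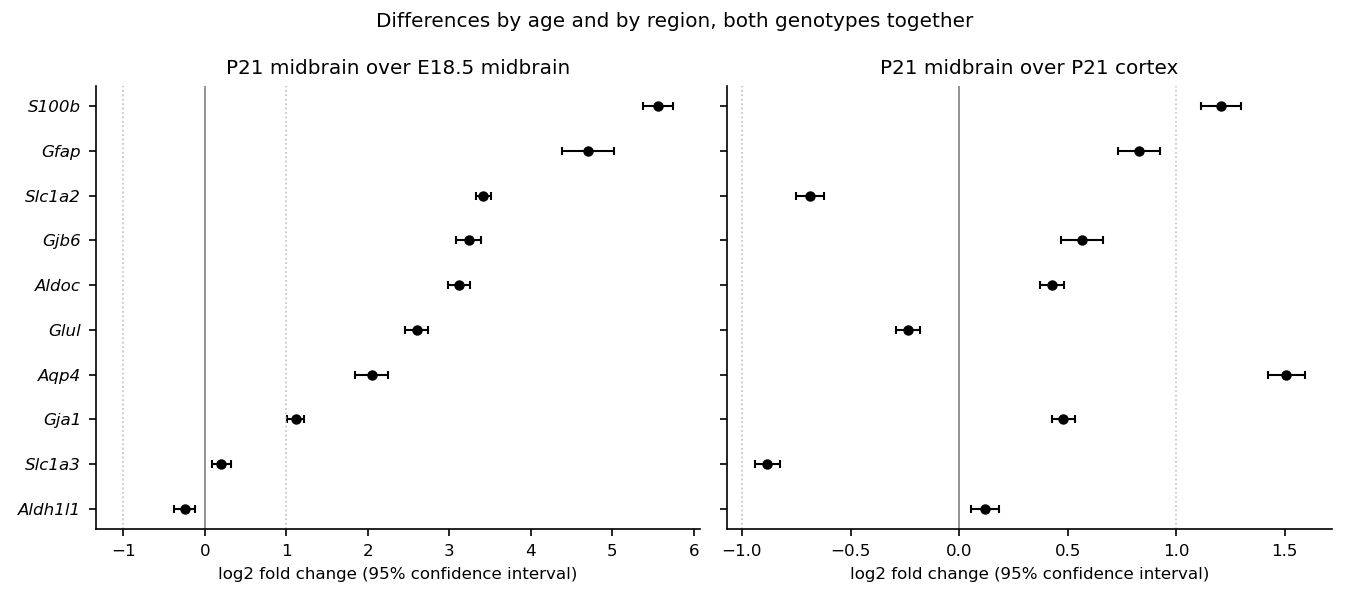
Log2 fold changes of the 10 genes (points) with 95% confidence intervals (bars), for P21 over E18.5 in midbrain on the left and for midbrain over cortex at P21 on the right; the horizontal scales differ, and dotted lines mark a 2-fold change. The genes are in order of the change with age, from *S100b* at 5.56 to *Aldh1l1* at −0.24, and that order is not kept between regions, where *Aqp4* is highest at 1.51 and *Slc1a3* lowest at −0.88.

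Ratios between genes of related roles were compared within libraries, where the scaling of a library cancels. *Slc1a2* stood at 0.409 times the TPM of *Slc1a3* at E18.5 (range 0.372 to 0.478, n = 12) and at 3.785 times in P21 midbrain (range 3.51 to 4.16, n = 8), so the order of the 2 transporters was the opposite at the 2 ages in every library. The ratio rose by 3.21 on the log2 scale (exact permutation test, two-sided, p = 7.94e-06, which is the lowest p possible with 12 and 8 libraries, or 3.97e-05 after adjustment over 15 ratio tests). *Gjb6* stood at 0.1055 times the TPM of *Gja1* at E18.5 and at 0.462 times in P21 midbrain, a rise of 2.13 on the log2 scale with the same exact p. *Vim*, the intermediate filament of radial glia and immature astrocytes, was the most abundant of these filament genes at E18.5, with 657 ± 43.9 TPM (SD, n = 12), and fell to 84.4 ± 10.6 TPM in P21 midbrain (SD, n = 8). *Gfap* was at 0.018 times the TPM of *Vim* at E18.5 and at 3.32 times in P21 midbrain, a change of 7.56 on the log2 scale (exact permutation test, p = 7.94e-06).

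**Figure D3:**
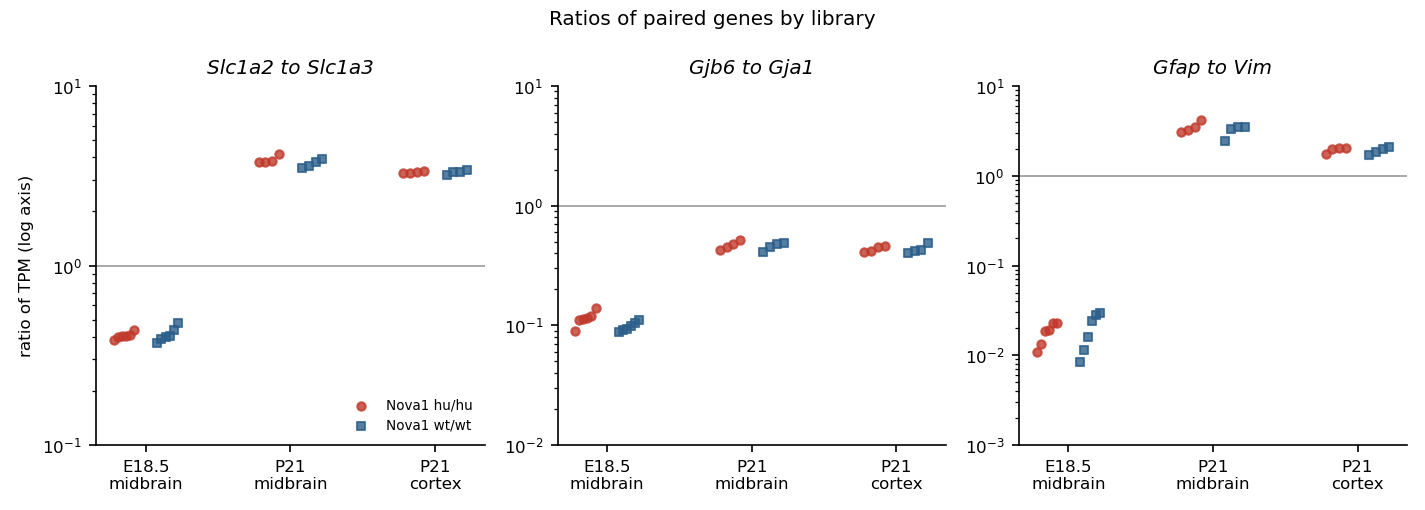
Ratios of TPM (vertical log axis) of *Slc1a2* to *Slc1a3*, *Gjb6* to *Gja1* and *Gfap* to *Vim* in every library; red circles are *Nova1* hu/hu and blue squares *Nova1* wt/wt, and the grey line marks equal levels. *Slc1a2* to *Slc1a3* and *Gfap* to *Vim* cross the line between E18.5 and P21, while *Gjb6* stays under *Gja1* at all times.

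Other genes of astrocytes were followed as lists grouped by role. Of 12 genes of ion and water handling, 10 were called higher and 1 lower at P21, led by the potassium channels *Kcnj10* (log2 fold change 4.69) and *Kcnj16* (3.09), with *Dag1* lower (−0.14). Of 12 genes of amino acid uptake and metabolism, 11 rose and 1 fell, with *Slc7a10* at 2.10, *Prodh* at 2.06 and *Gldc*, of glycine cleavage, at −1.31. Of 14 genes of energy, lipid and thyroid hormone metabolism, 12 rose and 2 fell, with *Dio2*, which activates thyroid hormone, at 5.59, *Mt2* at 3.67, *Fabp5* at −1.03 and *Slc1a4* at −0.96. Of 14 receptors and surface proteins, 13 rose, *Ntsr2* by 5.67 and *Gpr37l1* by 5.66, and *Ednrb* fell (−0.62). Secreted and synapse-regulating proteins split, with 11 of 17 higher (*Itih3* 4.92, *Agt* 3.96) and 6 lower (*Thbs4* −1.59, *Thbs1* −1.41).

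Genes of the immature state mostly fell. Of 13 genes of radial glia and immature astrocytes, 12 were lower at P21, among them *Hmga2* (−4.78) and the fatty acid-binding protein gene *Fabp7* (−4.14), and *Prom1* rose (0.68). Gliogenic transcription factors were divided between 7 higher and 6 lower of 14, with *Hopx* at 0.94, *Etv5* at 0.75, *Lhx2* at −1.89 and *Nfib* at −1.57. Of 14 reactive astrocyte genes, 13 were tested, 5 were higher (*C4b* 4.92, *Serpina3n* 3.04) and 6 lower (*Ggta1* −1.03, *Timp1* −0.83), with a median log2 fold change of −0.21. Markers of other cells moved over the same interval: oligodendrocyte precursors 6 of 7 higher, microglia 7 of 7 higher, endothelial and mural cells 5 of 8 higher and 1 lower, neurons 3 of 8 higher and 5 lower, ependymal and choroid plexus 4 of 8 higher and 2 lower, meningeal fibroblasts 1 of 6 higher and 5 lower, dividing progenitors 6 of 6 lower, and cerebellar granule cells and Bergmann glia 2 of 8 higher and 6 lower.

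At P21 each of the 10 genes also differed between midbrain and cortex, 7 higher and 3 lower in midbrain. Here 75.6% of 16345 genes were called, 37.9% as higher and 37.7% as lower in midbrain, and 7.81% as at least 2-fold higher. Only *Aqp4* and *S100b* were among the latter. The median log2 fold change of the 10 genes was 0.45, against 0.000635 over all genes tested. Given how the 10 genes were chosen, contrasts with all genes are a description here too. The 3 genes that were lower in midbrain were the 3 of glutamate handling. TPM ranges of the 8 and 8 libraries were apart for 9 of the 10 genes, compared with 48.8% of the 15568 genes that averaged 1 TPM or more in either region.

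*Aqp4* differed most, with 128 to 155 TPM in midbrain and 41.9 to 52.2 TPM in cortex (median 45.5), a log2 fold change of 1.51 (standard error 0.041, edgeR adjusted p = 1.96e-20), or 2.84-fold. In cortex at P21 its level lay within the range of E18.5 midbrain, where it ran from 26.6 to 55.1 TPM. *S100b* ranged from 145 to 171 TPM in cortex (median 153), which made it 2.31-fold higher in midbrain (log2 fold change 1.21, standard error 0.044, adjusted p = 9.94e-18). *Gfap* ranged from 126 to 169.8 TPM in cortex (median 150.5) and was 1.78-fold higher in midbrain (log2 fold change 0.83, standard error 0.046, adjusted p = 4.32e-14). No cortex library reached the lowest midbrain library for any of the 3 genes.

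The transporters and glutamine synthetase were the reverse. *Slc1a3* ranged from 223 to 249 TPM in cortex (median 229) against 125 to 141 TPM in midbrain, so cortex was 1.84-fold higher (log2 fold change −0.88, standard error 0.028, adjusted p = 5.32e-19). *Slc1a2* ranged from 717 to 823 TPM in cortex (median 759) and was 1.61-fold higher there (log2 fold change −0.69, standard error 0.032, adjusted p = 1.30e-15). *Glul* ranged from 1504 to 1695 TPM in cortex (median 1603), which overlapped the midbrain range, and the difference was small (log2 fold change −0.23, standard error 0.027, adjusted p = 4.32e-08). The ratio of *Slc1a2* to *Slc1a3* was 3.31 in cortex against 3.785 in midbrain (difference 0.20 on the log2 scale, exact permutation test, p = 0.000155, adjusted 0.000466).

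The connexins and *Aldoc* were modestly higher in midbrain. *Gja1* ranged from 120.4 to 127 TPM in cortex (log2 fold change 0.48, standard error 0.025), *Gjb6* from 49.3 to 61.7 TPM (0.57, standard error 0.046) and *Aldoc* from 1914 to 2190 TPM (0.43, standard error 0.028). The ratio of *Gjb6* to *Gja1* was 0.434 in cortex and 0.462 in midbrain, a difference within the spread of the libraries (exact permutation test, p = 0.1, adjusted 0.215). *Aldh1l1* was nearly even between the regions, at 114 to 129.7 TPM in cortex, and its log2 fold change was 0.12 in edgeR (standard error 0.031, adjusted p = 0.00123) and 0.20 as a difference of mean log2 TPM. In *Nova1* hu/hu libraries alone the fitted change of *Aldh1l1* was 0.070 and was not called.

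In the same comparison, oligodendrocyte markers were higher in midbrain in all 10 of 10 genes (median log2 fold change 1.60) and oligodendrocyte precursor markers in 7 of 7. Their part in the higher *S100b* of midbrain was not tested. Of the astrocyte lists, 8 of 12 genes of ion and water handling were higher and 2 lower in midbrain (*Kcnj10* 1.94, *Slc4a4* 1.28, *Clcn2* −0.79, *Dtna* −0.11), 8 of 12 genes of amino acid uptake were higher and 2 lower (*Slc6a9* 2.27, *Slc6a11* 2.23, *Gldc* −2.17, *Prodh* −0.51), and 12 of 14 receptors and surface proteins were higher and 2 lower (*P2ry1* 1.36, *Megf10* 0.96, *Mertk* −0.85, *S1pr1* −0.17). Genes of energy, lipid and thyroid hormone metabolism were 9 of 14 higher and 5 lower (*Pla2g7* 1.102, *Acsl3* 0.82, *Ppp1r3g* −1.71, *Dio2* −1.41), and secreted proteins 9 of 17 higher and 8 lower (*Agt* 2.79, *Itih3* 2.40, *Thbs4* −3.76, *Chrdl1* −2.88). Gliogenic transcription factors were lower in midbrain in 12 of 14 (*Lhx2* −3.06, *Nfib* −1.34) and higher in 1 (*Id1* 0.31).

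Radial glia genes were 4 higher and 3 lower of 12 tested, with *Tnc* at 0.96, *Prom1* at 0.56, *Cspg5* at −1.16 and *Gli3* at −0.21. Reactive astrocyte genes were 7 higher and 2 lower of 13 tested, with *Serpina3n* at 0.79, *Hspb1* at 0.72, *Timp1* at −0.56 and *S1pr3* at −0.19. Of the other markers, those of neurons were 1 higher and 6 lower of 8 in midbrain, microglia 7 of 7 lower, endothelial and mural cells 3 higher and 1 lower of 8, ependymal and choroid plexus 3 higher and 3 lower of 8, meningeal fibroblasts 2 higher of 6, dividing progenitors 4 lower of 6, and cerebellar granule cells and Bergmann glia 6 higher and 1 lower of 8.

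The order of the 10 genes by TPM was set out within each tissue. At E18.5 it ran *Aldoc*, *Glul*, *Aldh1l1*, *Slc1a3*, *Gja1*, *Slc1a2*, *Aqp4*, *Gfap*, *Gjb6* and *S100b*. Each gene was above the next in all 12 libraries, except that *Gfap* was above *Gjb6*, and *Gjb6* above *S100b*, in 8 of 12. In P21 midbrain it ran *Aldoc*, *Glul*, *Slc1a2*, *S100b*, *Gfap*, *Gja1*, *Aldh1l1*, *Aqp4*, *Slc1a3* and *Gjb6*, and *Aldh1l1*, *Aqp4* and *Slc1a3*, between 132 and 141 TPM on average, had overlapping ranges (*Aldh1l1* above *Aqp4* in 5 of 8 libraries, *Aqp4* above *Slc1a3* in 7). In P21 cortex *Aldoc*, *Glul*, *Slc1a2* and *Slc1a3* led with ranges apart, *S100b*, *Gfap*, *Gja1* and *Aldh1l1* followed, each overlapping the next (*S100b* was above *Gfap* in 5 of 8 libraries, *Gfap* above *Gja1* in 7 and *Gja1* above *Aldh1l1* in 4), and *Gjb6* and *Aqp4* came last and overlapped, with *Gjb6* higher in 7 of 8. *Aldoc* held 32.1% of the summed TPM of the 10 genes at E18.5, and at P21 47.3% in midbrain and 38.9% in cortex.

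The spread of the 10 genes at E18.5 was wider than at P21 and was shared between them. The median coefficient of variation of the 10 genes was 15.5% at E18.5, against 5.42% in midbrain and 4.49% in cortex of P21 pups. At E18.5 the sum of the 10 genes ranged from 1004 to 1465 TPM, and libraries with the same replicate number in the 2 genotypes went together. Replicate 5 had all 10 genes above the mean of its group in both genotypes, and replicate 3 had 9 in *Nova1* hu/hu and 8 in *Nova1* wt/wt. Replicates 1 and 4 had 1 of 10 genes above in *Nova1* hu/hu and 0 and 1 in *Nova1* wt/wt. Same-numbered libraries lay on the same side of their group means in 48 of 60 pairs of values, and in every pair for *Aqp4*, *Slc1a3*, *Aldh1l1* and *Glul*, whereas *Gjb6* did so in 1 of 6 pairs. At P21 the count was 26 of 40 for midbrain and 21 of 40 for cortex. These spreads and counts were not made over all genes and are not particular to the 10. Over all genes averaging 1 TPM or more, deviations of same-numbered E18.5 libraries correlated at 0.165 to 0.399. Other astrocyte lists also varied at E18.5, with sums of 972 to 1358 TPM for ion and water handling and 975 to 1354 TPM for amino acid uptake and metabolism.

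**Figure D4:**
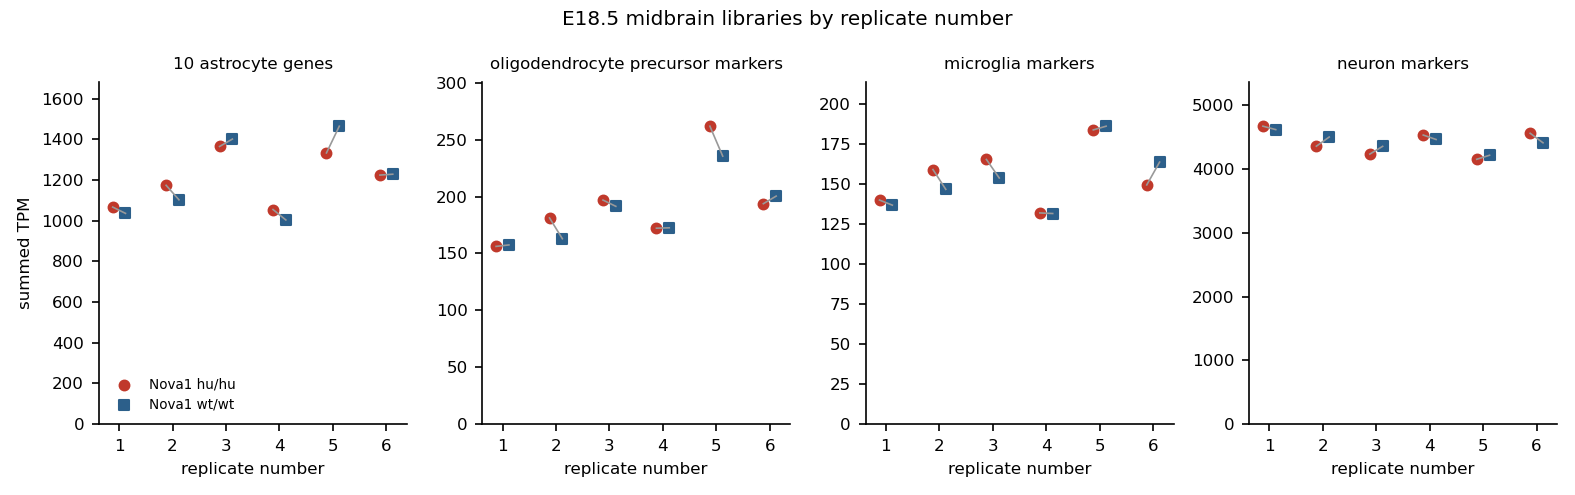
Summed TPM (vertical axes from 0, scale set per panel) of the 10 astrocyte genes and of 3 marker lists in the 12 E18.5 midbrain libraries, by replicate number. Red circles stand for *Nova1* hu/hu, blue squares for *Nova1* wt/wt, and grey lines join the same number. The 10 genes are highest in replicates 3 and 5 and lowest in 1 and 4 in both genotypes, from 1004 to 1465 TPM.

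Markers of other cells moved with some replicate numbers and not with others. Relative to the group means, the log2 deviation averaged over the 2 genotypes was 0.23 in replicate 5 and −0.22 in replicate 4 for the summed 10 genes, 0.40 and −0.13 for oligodendrocyte precursor markers, 0.27 and −0.22 for microglia markers, −0.08 and 0.03 for neuron markers, and 0.07 and 0.01 for radial glia and immature astrocyte genes. In replicate 3, where the 10 genes stood at 0.21, oligodendrocyte precursor markers were at 0.047, microglia markers at 0.059 and oligodendrocyte markers at −0.035. Ependymal and choroid plexus markers had the widest deviations, 1.08 in replicate 3, −2.09 in replicate 4 and −0.27 in replicate 5. What the replicate number stands for is not given in the labels, and the part of other cell types in this spread was not tested.

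Between genotypes, none of the 10 genes was called in any tissue or age. Over all genes, edgeR called 0% in each case (0 of 15540 genes at E18.5, 0 of 15972 in P21 midbrain and 0 of 15767 in P21 cortex), while 1.29%, 2.67% and 2.85% had an unadjusted p under 0.05. DESeq2 called 0, 1 and 0 genes, and none of them was among the 10. With the replicate number as a block, edgeR called 0, 4 and 0 genes, again none of the 10. In E18.5 midbrain the log2 fold changes of *Nova1* hu/hu over wt/wt ran from −0.13 for *S100b* to 0.27 for *Gjb6*, and the widest 95% confidence interval, that of *Gfap*, was −0.64 to 0.43. In P21 midbrain they ran from −0.037 for *Aldh1l1* to 0.079 for *Gjb6*, with all interval bounds between −0.14 and 0.19. In P21 cortex they ran from −0.0025 for *Gja1* to 0.099 for *S100b*, with bounds between −0.15 and 0.22, so for each gene a change of more than 1.17-fold lay outside its interval there. These intervals come from fits without the replicate number. At E18.5 the median standard error of the 10 genes was 0.096 in that fit and 0.045 with the block, where their interval bounds lay between −0.35 and 0.52.

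**Figure D5:**
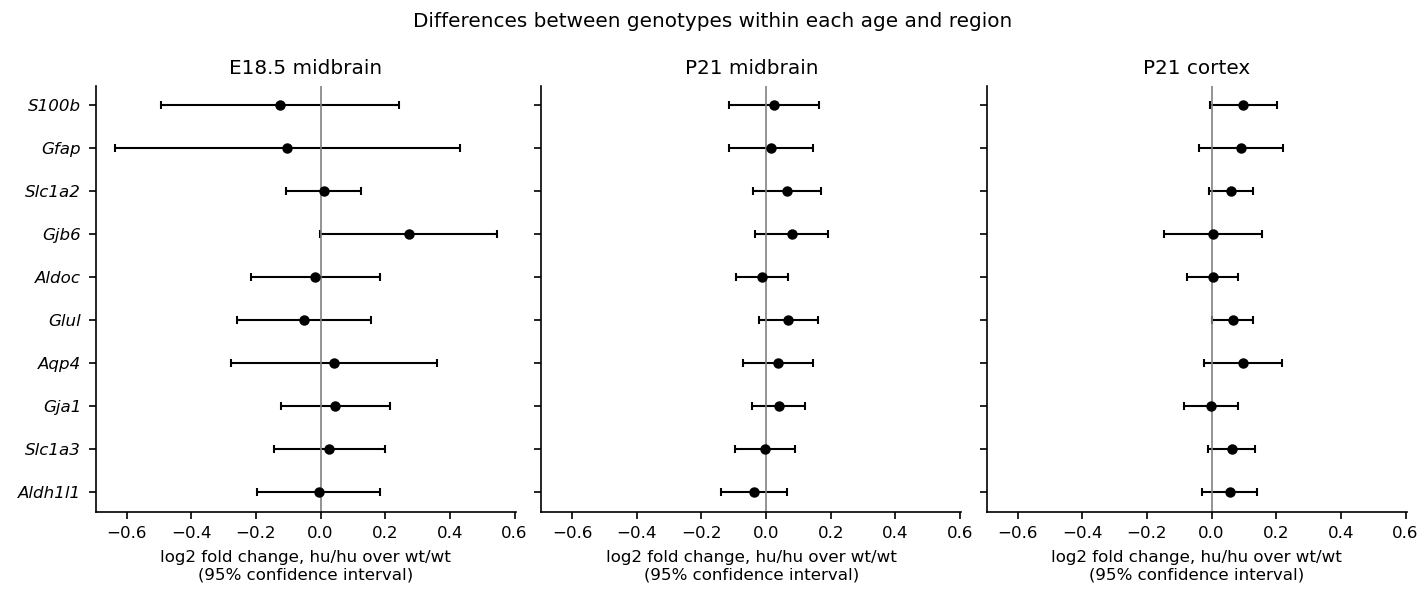
Log2 fold changes of *Nova1* hu/hu over *Nova1* wt/wt (points) with 95% confidence intervals (bars) for the 10 genes in each tissue and age, on 1 horizontal scale. The intervals are widest at E18.5, where that of *Gfap* runs from −0.64 to 0.43, while the points for P21 cortex lie between −0.0025 and 0.099.

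*Gjb6* at E18.5 had the largest single difference. Its level ranged from 7.67 to 13.2 TPM in *Nova1* hu/hu (median 11.96, n = 6) and from 7.79 to 11.6 TPM in *Nova1* wt/wt (median 9.10, n = 6). The ranges overlapped, and the log2 fold change of 0.27 (standard error 0.13, unadjusted p = 0.0503, and adjusted p = 0.9999 in edgeR) did not pass. With the replicate number as a block it was also 0.27 (95% confidence interval 0.012 to 0.52, unadjusted p = 0.0408, adjusted p = 0.929 in edgeR), where 5.23% of all genes had an unadjusted p under 0.05. The ratio of *Gjb6* to *Gja1* differed by 0.22 on the log2 scale (exact permutation test, p = 0.0455), which missed 0.05 after adjustment over 15 ratio tests (0.114). Without *Nova1* hu/hu replicate 6, whose *Gjb6* level was the lowest of its group, the difference was 0.296 and the adjusted p was 0.0108 (exact permutation test). None of the 9 ratio tests between genotypes passed with all libraries.

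In P21 cortex 9 of the 10 genes had fitted differences above 0, all of them small and none called. Over all 15767 genes tested the median was −0.00071, so nearly as many genes lay above 0 as below. The 10 genes are not separate observations, because they moved together within libraries. In *Nova1* hu/hu, 9 of them were above the group mean in replicate 2 and 0 in replicate 3. *Slc1a2* was at 0.060 (standard error 0.031, unadjusted p = 0.0741 in edgeR) and *Slc1a3* at 0.062 (standard error 0.035, unadjusted p = 0.0951 in edgeR). Of the same-numbered pairs of libraries, *Nova1* hu/hu was the higher in 4 of 4 for *Gfap*, *Glul*, *Slc1a3* and *Aldh1l1*, in 3 of 4 for *S100b*, *Aqp4* and *Slc1a2*, in 2 of 4 for *Gja1* and *Aldoc* and in 1 of 4 for *Gjb6*. These pair counts were not made over all genes. *Glul* was at 1614, 1695, 1560 and 1650 TPM in the 4 *Nova1* hu/hu libraries and at 1606, 1537, 1504 and 1601 TPM in the 4 *Nova1* wt/wt libraries, and its log2 fold change was 0.065 (standard error 0.030, unadjusted p = 0.0441 and adjusted p = 0.9999 in edgeR). *Gfap* was at 150.4, 155, 139 and 169.8 TPM against 149, 150.5, 126 and 152 TPM, *S100b* at 156, 171, 146 and 167 TPM against 145, 145, 151 and 158 TPM, and *Aqp4* at 50.02, 45.1, 43.7 and 52.2 TPM against 44.0, 41.9, 47.2 and 45.9 TPM. The 2 genotypes overlapped for each of these genes. With the replicate number as a block, *Gfap*, *Glul*, *S100b* and *Aqp4* had an unadjusted p under 0.05 in edgeR (lowest for *Gfap*, 0.00884) and *Slc1a2* and *Slc1a3* were just above it (0.0507 and 0.0556), where 5.69% of all genes were under it, and none passed the adjustment (lowest adjusted p = 0.802). In P21 midbrain the block gave *Glul* 0.071 (unadjusted p = 0.0257, adjusted p = 0.999 in edgeR), with *Nova1* hu/hu higher in 4 of 4 pairs, where 4.6% of all genes were under 0.05. The median log2 fold change of the 10 genes in P21 cortex was 0.061, beside 0.10 for 7 microglia markers, 0.059 for 7 oligodendrocyte precursor markers, 0.038 for 10 oligodendrocyte markers and −0.027 for 8 neuron markers, and the part of cell makeup in it was not tested.

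The change with age and the difference between regions were also compared between the genotypes. For the interaction of genotype and age, 0% of 16330 genes were called by edgeR (1.86% at an unadjusted p under 0.05), and the 10 genes ran from −0.19 for *Gjb6* to 0.15 for *S100b* on the log2 scale. For the interaction of genotype and region, 0% of 16345 genes were called (2.28% at an unadjusted p under 0.05), and the 10 genes ran from −0.089 for *Aldh1l1* to 0.078 for *Gjb6*. Without the block, none of the 10 had an unadjusted p under 0.05 in either, and DESeq2 called 0 genes in both. With the replicate number as a block, *Glul* had an interaction with age of 0.13 (95% confidence interval 0.035 to 0.22, unadjusted p = 0.00868, adjusted p = 0.995 in edgeR), where 4.54% of all genes were under 0.05. For region the block was a different one. It joined the midbrain and cortex libraries of a genotype that shared a number, and the deviations of these did not correlate positively. With that block none of the 10 was under 0.05, against 2.01% of all genes.

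For each of the 10 genes, the 3 genes with the most similar pattern over the 28 libraries were named, by the root mean square difference of log2(TPM + 1) values centred per gene, among 15540 genes that averaged 1 TPM or more. The nearest to *Aqp4* was *Slc4a4*, the astrocyte bicarbonate transporter (difference 0.17), with 63.1 TPM at E18.5 and 190.4 and 74.1 TPM in midbrain and cortex at P21. The nearest to *S100b* was *Cnp*, a myelin enzyme of oligodendrocytes (0.17), with 41.2, 1690 and 588 TPM in the same order. *Gfap* had *Rasgrf1*, *Lynx1* and *Kcna1* (0.31 to 0.35), *Aldoc* and *Gjb6* shared *Kcna2* (0.10 and 0.18), *Slc1a3* had *Dlgap4* (0.11), *Slc1a2* had *Selplg* (0.16), *Gja1* had *St3gal6* (0.10), *Glul* had *Purb* (0.13), and *Aldh1l1* had *Ext2* and *Dag1* (0.091 and 0.10). Of the 30 nearest genes, 3 were on any of the lists used here. Among the 10 genes themselves the closest pairs were *Gjb6* and *Aldoc* (0.22), *Aldoc* and *Glul* (0.29) and *Gfap* and *S100b* (0.40). These patterns are set mostly by 3 levels, 1 for each tissue and age, and are given as a description.

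Promoter sequences were sought for all 10 genes, whichever way they moved. RefSeq windows on GRCm38.p6, from 250 bases before to 50 bases after a start, were found for 9 of the 10 genes. For *Slc1a2* the 250 bases before the start used (chr2:102706188-102706437) lay inside the span of the gene given above. They were searched on both strands for the TATA box (TATAAA), the nuclear factor I motif (TTGGCA), of a factor family of gliogenesis, and the STAT motif (TTCNNNGAA), which reads the same on both strands. TATAAA was in 1 of the 10 windows of these genes, compared with 13.6% of all 32851 windows, TTGGCA in 2 of 10 compared with 14.1%, and TTCNNNGAA in 3 of 10 compared with 8.30%. The 250 bases before the start are shown for the 2 genes that rose most with age, *S100b* (chr10:76253586-76253835, plus strand) and *Gfap* (chr11:102897201-102897450, minus strand), and for *Slc1a3* (chr15:8710808-8711057, minus strand), whose TPM ranges at the 2 ages overlapped. Capitals mark the motifs, which were TTGGCA in *S100b*, none in *Gfap*, where a TTCNNNGAA match begins 2 bases before the start and runs past it, and a reversed TATAAA and TTCNNNGAA in *Slc1a3*.
*S100b*: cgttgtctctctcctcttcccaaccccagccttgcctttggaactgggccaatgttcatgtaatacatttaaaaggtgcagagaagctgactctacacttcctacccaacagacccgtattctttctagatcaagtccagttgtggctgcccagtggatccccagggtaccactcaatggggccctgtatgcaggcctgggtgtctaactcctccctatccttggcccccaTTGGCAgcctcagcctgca
*Gfap*: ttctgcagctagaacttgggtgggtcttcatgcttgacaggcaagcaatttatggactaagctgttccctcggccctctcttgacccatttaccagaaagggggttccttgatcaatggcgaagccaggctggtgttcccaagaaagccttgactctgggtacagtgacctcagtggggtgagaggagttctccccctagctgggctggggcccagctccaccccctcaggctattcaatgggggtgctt
*Slc1a3*: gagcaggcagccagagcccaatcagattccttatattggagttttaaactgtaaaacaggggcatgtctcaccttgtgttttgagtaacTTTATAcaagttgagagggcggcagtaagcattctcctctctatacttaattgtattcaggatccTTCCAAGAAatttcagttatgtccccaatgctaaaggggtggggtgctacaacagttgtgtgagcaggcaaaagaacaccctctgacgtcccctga
The remaining matches were TTGGCA before the first and 2 copies of TTCNNNGAA before the second start of *Aldoc*.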

How the data were processed

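Bulk RNA-seq of midbrain (E18.5, P21) and cortex (P21) from *Nova1* hu/hu and wt/wt mice was analysed in 28 libraries, with groups taken from the sample titles. From polyA-selected RNA, the authors made paired-end reads, aligned them to mm10 (OLego) and quantified genes with countit of Quantas. The annotation version and the strand setting are not given in the sources used here. Each deposited table gives 23038 genes with an expected count (not always whole, for a reason the sources used here do not give), the exon length and RPKM. RPKM as deposited could be recomputed from the other columns and was not tested. TPM was computed from unrounded counts and exon lengths.

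Expected counts were rounded and tested with edgeR 4.0.16 in R 4.3.3 (glmQLFit and glmQLFTest, TMM factors, filterByExpr, two-sided, Benjamini-Hochberg over all genes tested; p under 0.05 and adjusted p under 0.1). Genotypes were compared within each tissue and age without covariates, and age (20 midbrain libraries) and region (16 P21 libraries) with genotype as covariate. TPM ratios had exact permutation tests. Some of the fits were also run on simulated counts, drawn without a shared effect of replicate number, and the outcome is not given here. Of the Entrez identifiers, 22959 matched RefSeq.

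The 10 genes and the marker lists were chosen with earlier results of these data known. By rule, all 10 genes are named, with up to 2 called genes of largest rise and of largest fall from each list and the 3 genes of most similar pattern; for the lists of other cell types the text gives counts, and for similar genes mainly the nearest. Alternatives were RLE and upper-quartile factors, DESeq2 1.42.0, other filters and thresholds, the replicate number as a block (for age as a random effect in limma 3.58.1), 1 fit over 28 libraries, 1 genotype alone, log2(TPM + 1) for ratios and each library left out. The difference of mean log2 TPM was added after seeing the data. Replicate numbers paired the genotypes: deviations of same-numbered libraries correlated in every pair, at 0.165 to 0.399 (E18.5), 0.155 to 0.230 (P21 midbrain) and 0.169 to 0.220 (P21 cortex). They did not pair the regions: same-numbered midbrain and cortex libraries correlated at −0.162 to −0.075 (*Nova1* hu/hu) and −0.125 to −0.044 (*Nova1* wt/wt). The block for region and for its interaction with genotype joined these libraries all the same.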

Additional observations from a re-analysis of the deposited data

Results flagged for a closer look

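Among 78 groups of 4 to 6 values, 6 held 1 library far from the others by Dixon's criterion, which by chance marks about 1 in 20 groups. *Gjb6* in *Nova1* hu/hu replicate 6 at E18.5 was at 7.67 TPM, with the other 5 libraries at 11.1 to 13.2 TPM. *S100b* in *Nova1* wt/wt replicate 5 at E18.5 was at 14.5 TPM, with the others at 7.21 to 9.40 TPM, and this library had all 10 genes above its group mean. In P21 midbrain, the log2 ratio of *Slc1a2* to *Slc1a3* was 2.06 in *Nova1* hu/hu replicate 1 (others 1.92 to 1.93), and that of *Gfap* to *Vim* was 1.29 in *Nova1* wt/wt replicate 3 (others 1.75 to 1.81). In P21 cortex, *Gfap* was at 126 TPM in *Nova1* wt/wt replicate 3 (others 149 to 152 TPM) and *Gja1* at 121 TPM in *Nova1* wt/wt replicate 2 (others 125 to 126 TPM). What sets these libraries apart was not tested.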

How the results depend on the processing

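The calls with age and region kept their direction under the alternatives tried, and each library left out in turn left all 10 genes called. Exceptions were *Slc1a3* with age, at 0.10 with upper-quartile factors and 0.0055 on the TPM scale, and *Aldh1l1* between regions, at 0.070 in *Nova1* hu/hu alone, none of which passed. Between genotypes in P21 midbrain, DESeq2 called 1 gene and the replicate block 4 genes, against 0, and the block changed no call of the 10 genes. The sign of differences near 0 turned for *Aldh1l1* at E18.5 (0.00103 with upper-quartile factors, 0.00221 with the block) and in P21 cortex for *Gja1* (0.000938, upper-quartile factors) and *Aldoc* (−0.00145, 1 fit over 28 libraries).

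Leaving out 1 library turned the sign of further genotype differences, none of them called. At E18.5 the ranges were −0.249 to 0.0618 for *Gfap*, −0.0369 to 0.175 for *Aqp4*, −0.0185 to 0.0362 for *Slc1a2*, −0.0127 to 0.0871 for *Slc1a3*, −0.0463 to 0.0642 for *Aldh1l1*, −0.225 to 0.0333 for *S100b*, −0.0689 to 0.0653 for *Aldoc* and −0.134 to 0.013 for *Glul*. In P21 midbrain they were −0.0378 to 0.0608 for *Gfap*, −0.0277 to 0.0288 for *Slc1a3*, −0.0359 to 0.0619 for *S100b* and −0.0467 to 0.0143 for *Aldoc*, and in P21 cortex −0.0192 to 0.0104 for *Gja1*, −0.0417 to 0.075 for *Gjb6* and −0.0277 to 0.0193 for *Aldoc*. The log2 ratio of *Slc1a2* to *Slc1a3* ranged from −0.0535 to 0.0194 at E18.5 and from −0.0168 to 0.0103 in P21 cortex. That of *Gjb6* to *Gja1* ranged from 0.166 to 0.296 at E18.5, past the threshold only without *Nova1* hu/hu replicate 6, from −0.0106 to 0.0811 in P21 midbrain and from −0.0233 to 0.0679 in P21 cortex. That of *Gfap* to *Vim* ranged from −0.252 to 0.111 at E18.5 and from −0.0252 to 0.0796 in P21 cortex. *S100b*, with 53 to 181 counts per library, was the least deeply covered of the 10 genes at E18.5. The cause of these changes was not tested.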
